A study of Homo sapiens with 2 samples.

Results

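Binding of active YAP was examined around 5 genes for G protein alpha subunits: GNA11, GNA15 and GNAQ of the Gq class, and GNA12 and GNA13 of the G12 class. The genes were taken as 4 windows of hg19, one of them shared by the neighbours GNA11 and GNA15. The windows ran on chromosome 19 from 3.04 to 3.22 Mb (GNA11 and GNA15), on chromosome 9 from 80.28 to 80.7 Mb (GNAQ), on chromosome 7 from 2.71 to 2.94 Mb (GNA12) and on chromosome 17 from 62.95 to 63.11 Mb (GNA13). A peak belonged to a window when its summit lay inside. In all, 5 of the 9393 peaks in the list did: 1 in the GNA11 and GNA15 window, 4 in the GNAQ window and 0 in each of the other two. The members were chosen by the positions and heights of these same peaks, so their counts and heights are given as a description without a test.

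The material was MCF10A, a human mammary epithelial line, expressing Flag-tagged YAP-5SA, a mutant of the co-activator YAP that escapes inhibition by the LATS kinases of the Hippo pathway. The labels call the line non-transformed in one field and a breast cancer line in another. Chromatin fixed with formaldehyde and bound by the tagged protein was pulled down with Flag-M2 beads and sequenced as 1 ChIP library, and 1 library of input DNA came from the same kind of cells. Only the peaks of the ChIP library were analysed here, not the input and not cells that lack the tagged protein. Without a replicate or read counts, no value below carries an error between cultures, and the depth is unknown.

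Heterotrimeric G proteins carry signals from G protein-coupled receptors into the cell through their alpha subunits. GNAQ, GNA11 and GNA15 encode subunits that activate phospholipase C beta, which raises calcium and activates protein kinase C. GNA12 and GNA13 encode subunits that activate RhoA through guanine nucleotide exchange factors, and RhoA promotes the assembly of actin filaments. Both classes lie upstream of YAP: their activation by ligands such as lysophosphatidic acid lowers LATS activity and lets YAP enter the nucleus. Activating mutations of GNAQ and GNA11 are known drivers of uveal melanoma. YAP does not bind DNA itself and reaches it mainly through TEAD transcription factors, often beside AP-1.

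The sequences just before the gene starts are shown for GNA11, GNA12 and GNA13. GNA11 shares the window of the tallest peak with GNA15, and the windows of GNA12 and GNA13 were empty. RefSeq (GRCh38.p14) gave 5 promoters for 3 of the 5 genes. Each line holds the 250 bases before a start, 5′ to 3′ on the gene's strand, and capitals mark a match to the TEAD motif GGAATG or the AP-1 motif TGANTCA, searched on both strands. No capitals overlap between the motifs. The coordinates are those of GRCh38.p14 and cannot be set beside the hg19 peaks.
GNA11, chr19:3094112-3094361, plus strand: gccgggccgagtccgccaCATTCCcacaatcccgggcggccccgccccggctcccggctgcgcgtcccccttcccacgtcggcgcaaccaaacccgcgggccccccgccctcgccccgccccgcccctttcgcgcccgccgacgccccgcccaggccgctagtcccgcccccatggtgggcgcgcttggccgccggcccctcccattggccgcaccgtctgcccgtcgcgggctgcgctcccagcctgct
GNA12, chr7:2844309-2844558, minus strand: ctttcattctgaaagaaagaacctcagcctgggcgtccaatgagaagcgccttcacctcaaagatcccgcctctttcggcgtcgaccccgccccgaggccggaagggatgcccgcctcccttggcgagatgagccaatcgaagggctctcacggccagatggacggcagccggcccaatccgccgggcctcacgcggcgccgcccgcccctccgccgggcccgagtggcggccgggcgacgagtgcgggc
GNA12, second start, chr7:2815231-2815480, minus strand: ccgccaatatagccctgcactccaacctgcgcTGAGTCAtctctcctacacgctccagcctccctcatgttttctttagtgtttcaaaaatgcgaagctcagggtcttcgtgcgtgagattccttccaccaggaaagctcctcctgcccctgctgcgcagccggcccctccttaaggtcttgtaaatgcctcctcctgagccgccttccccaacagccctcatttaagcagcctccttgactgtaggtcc
GNA13, chr17:65056741-65056990, minus strand: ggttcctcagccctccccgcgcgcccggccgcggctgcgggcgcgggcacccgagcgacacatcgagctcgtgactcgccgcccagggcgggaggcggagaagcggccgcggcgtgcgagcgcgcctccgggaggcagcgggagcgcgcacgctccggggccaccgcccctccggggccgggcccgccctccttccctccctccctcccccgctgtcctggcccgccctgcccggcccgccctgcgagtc

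The GNA11 promoter held 1 TEAD match, CATTCC on the printed strand, whose first base lay 232 bases before the start, and no AP-1 match. Among the 35116 promoters of the table, 11.9% held a TEAD match in the same 250 bases. The second start of GNA12 had 1 AP-1 match, beginning 218 bases before it, and 6.57% of all promoters had at least one. Counted by gene over all its listed starts, 8.06% of 27305 genes had an AP-1 match and 14.3% a TEAD match. Neither motif was found at the first start of GNA12 or at either listed start of GNA13. The GNA11 stretch was 80.4% G and C with 37 CpG sites. The GNA12 stretches had 69.6% with 30 CpG sites at the first start and 56% with 9 at the second, and the GNA13 stretches had 82% with 39 at the printed start and 66% with 17 at the other. Over all promoters the medians were 58% and 11 CpG sites. A match is a run of letters and does not show binding. The windows of GNA12 and GNA13 held no listed peak. Whether the peak of the shared window lies at the GNA11 start was not determined, since gene positions on hg19 were not used.

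The Gq class genes GNA11 and GNA15 stand next to each other in the RefSeq gene order, with the gene for the co-repressor TLE5 on the GNA11 side and S1PR4, a sphingosine-1-phosphate receptor gene, on the GNA15 side. Their shared window of 0.18 Mb held a single peak, and it was the tallest of the whole list. It lay on chromosome 19 from 3116252 to 3116834 of hg19, with its summit at 3116448 as deposited and a height of 100. The height is the score that the authors gave each summit, without a stated unit, and whether 100 is an upper limit of the score is not given in the sources used here. No other peak had this height: the next, on chromosome 10, reached 99, and the second tallest of chromosome 19 reached 73. The median over all 9393 peaks was 24, with quartiles of 19 and 30, so the GNA11 window peak stood at 4.17 times the median. Whether it falls within GNA11 or GNA15 was not determined. The name GNA11 window peak is short for the shared window and assigns the peak to neither gene.

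**Figure D1:**
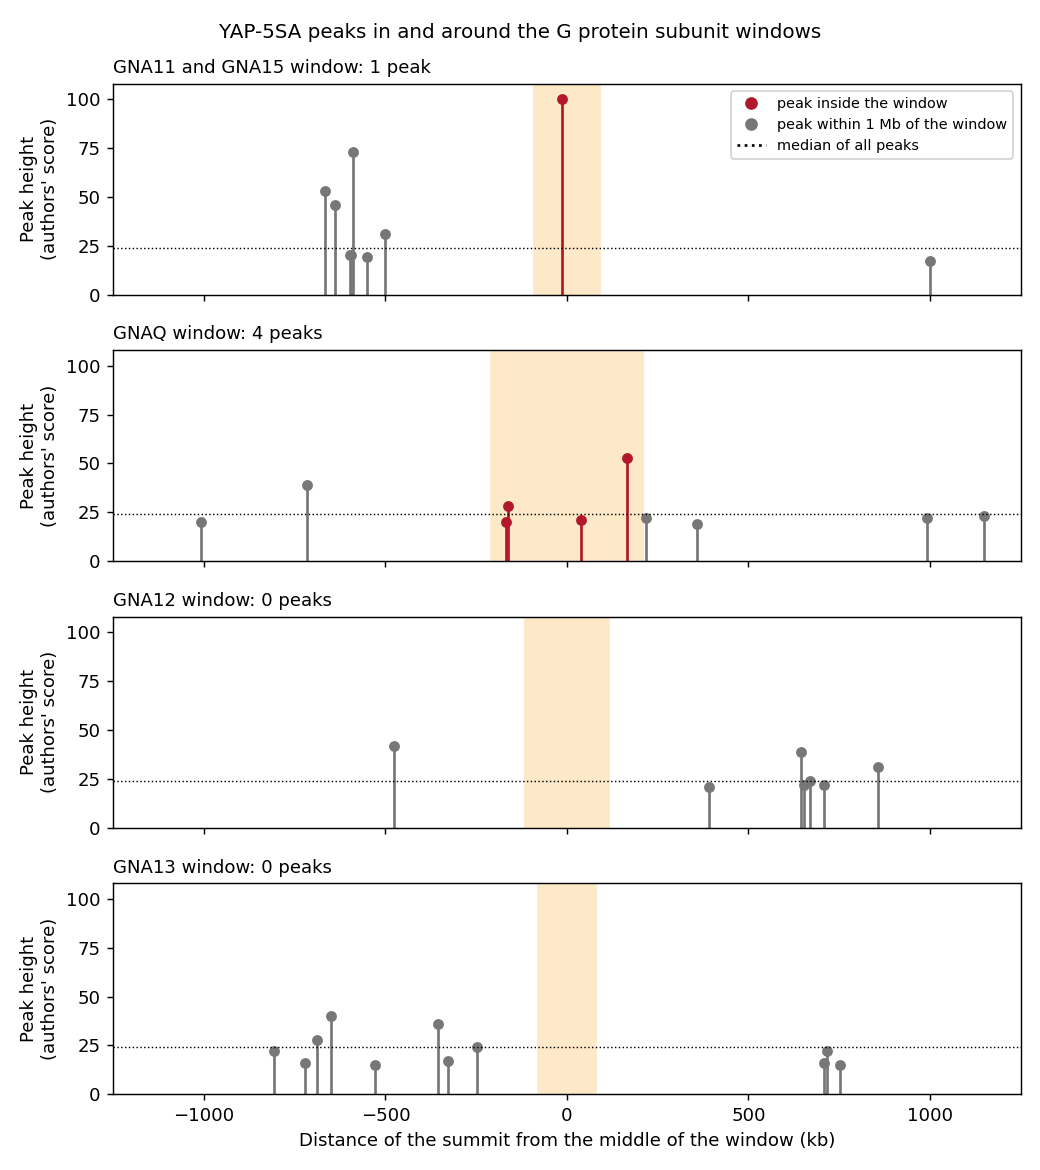
Height of each peak (vertical axis, the authors' score) against the distance of its summit from the middle of the window in kb (horizontal axis), with 1 panel per window. Red points are peaks inside the shaded window, grey points are peaks up to 1 Mb outside it, and the dotted line is the list median of 24. A lone peak of height 100 stands in the GNA11 and GNA15 window, the GNAQ window holds heights of 20, 28, 21 and 53, and the GNA12 and GNA13 windows are empty.

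The GNA11 window peak stood alone along the chromosome. The summit before it lay 488.8 kb away, with a height of 31, and the summit after it 1014.82 kb away, with a height of 17. Only 464 of the 9393 peaks (4.94%) had a nearest neighbour farther off, against a median distance of 55.8 kb over the list. Tall peaks as a class were not isolated in this way: among the 88 peaks of height 60 or more, the median distance to the nearest summit was 37.2 kb, and 3 of the 88 had a more distant neighbour than the GNA11 window peak. For the next 9 tallest peaks, the nearest summit lay 1.12 to 125.8 kb away.

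Set against its surroundings, the GNA11 window peak was also the highest in the list. The 5 summits on each side of it had a median height of 21, and its height was 4.76 times that value. The same ratio had a median of 2.69 over the 88 peaks of height 60 or more and was at least 2 for 3.92% of all peaks. The second highest ratio was 3.85, at a peak of height 77 on chromosome 7. Among the 18 other summits within 2 Mb the median was 22 and the maximum was 73. The ratio shares its heights with the choice of the window and describes how far the peak rose above its neighbours. Heights were not corrected for the number of DNA copies, whose part in them was not tested. Neither the input nor cells that lack the tagged protein were examined at this position, and how duplicate reads were handled is not given. Whether part of the height arose without binding of the tagged protein was not tested. A height also cannot tell a larger share of bound cells from more binding per cell.

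The GNA11 window peak was narrow for its height. It was 583 bp wide, below the list median of 611 bp, and 41.5% of all peaks were narrower. Among the 88 peaks of height 60 or more, the median width was 746 bp, with quartiles of 653 and 856 bp, and 9 of the 88 (10.2%) were narrower than the GNA11 window peak. The peak of height 99 on chromosome 10 was 1047 bp wide, and that of height 91 on chromosome 20 was 1589 bp wide. The summit lay 95 bp from the middle of its interval, against a median of 42.5 bp over the list.

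**Figure D2:**
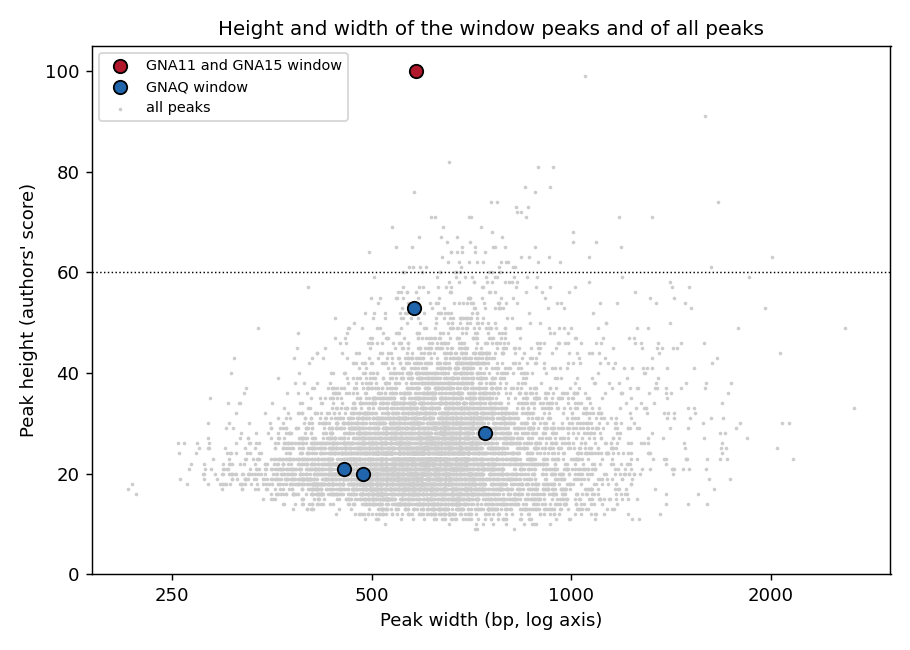
Height (vertical axis, the authors' score) against width in bp (horizontal axis, logarithmic) for the window peaks in colour and all 9393 peaks in grey, with a dotted line at a height of 60. The GNA11 window peak is the highest point at a width of 583 bp, while the peaks of height 99 and 91 are 1047 and 1589 bp wide.

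GNAQ encodes the subunit after which the Gq class is named, and its neighbour in the RefSeq gene order is GNA14, another Gq class gene, with CEP78, a centrosomal protein gene, on the other side. Its window of 0.42 Mb held 4 peaks, or 9.52 per Mb, against 3.45 per Mb over the whole list. Of all consecutive stretches of 0.42 Mb, 10.6% held 4 or more summits, and of those on chromosome 9, 8.17% did. The window was the longest of the 4, and at the density of the list 1.45 peaks would fall in it.

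The 4 peaks of the GNAQ window differed in height. In order along chromosome 9, a peak of height 20 covered 80322506 to 80322991 and a peak of height 28 covered 80327545 to 80328284. A peak of height 21 covered 80527767 to 80528221, and a peak of height 53 covered 80655484 to 80656062. The peaks of height 20 and 21 were lower than the list median of 24, that of height 28 lay between the median and the upper quartile, and that of height 53 was at 2.21 times the median. Their own median was 24.5, close to that of the list.

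The peak of height 53 led the GNAQ window. It shared rank 186 of 9393 with 15 other peaks, and on chromosome 9 it shared rank 6 of 366 peaks, where the tallest had a height of 63. The 5 summits on each side of it had a median height of 22, so its height was 2.41 times theirs, against a median of 1.92 times over the 814 peaks of height 40 or more. Of all peaks, 3.92% were at least at 2 times. It was 579 bp wide, nearly the width of the GNA11 window peak, and its summit lay 19 bp from the middle of the interval. The other 3 peaks of the window stood at 0.87, 1.3 and 0.93 times the median of their neighbours, near the list's own median ratio of 1.

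The GNAQ window peaks were spread unevenly. Those of height 20 and 28 formed a close pair, with summits 5.15 kb apart. The peak of height 21 stood 200.1 kb beyond the pair, and the peak of height 53 another 127.8 kb on. The widths of the pair were 486 and 740 bp, and the wider one, also the higher, was wider than 80.0% of all peaks. The peak of height 21 was the narrowest of the window peaks at 455 bp, with 10.9% of the list narrower. The peak of height 53 had its nearest neighbour 51.1 kb away, outside the window, where a peak of height 22 lay 6.85 kb beyond the edge. On the other side, the next summit was 506 kb before the edge and had a height of 39. A window widened by 50 kb on each side would take in the peak of height 22 and no other.

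**Figure D3:**
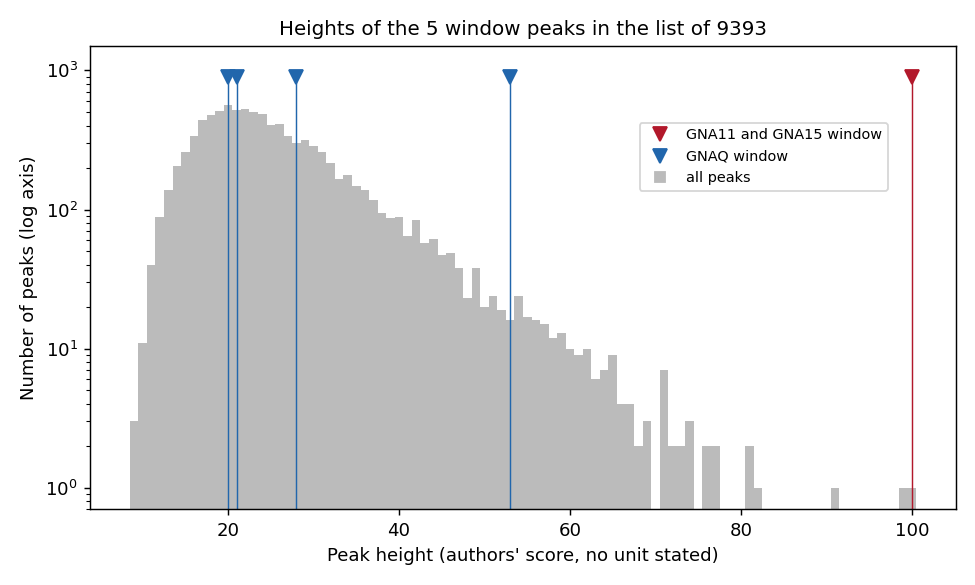
Number of peaks (vertical axis, logarithmic) at each height (horizontal axis, the authors' score) for all 9393 peaks in grey, with triangles at the heights of the window peaks. The GNAQ window peaks of height 20, 21 and 28 fall in the bulk of the list, the one of height 53 in its upper tail, and the GNA11 window peak of height 100 at its end.

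Of the 5 window peaks, 2 had a height of 40 or more, against 8.67% of the list, and one of them led each of the occupied windows. At 60 or more there was 1, against 0.937% of the list. At 30 or more there were again 2, against 26.6%. Of the 5, 3 had no other summit within 50 kb, against 52.2% of the list. The median width of the 5 was 579 bp, with a range of 455 to 740 bp, against 611 bp over all peaks. With 5 peaks in windows picked for what they hold, these shares describe the members and are not set apart from the background.

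GNA12 and GNA13, the subunits that couple receptors to RhoA, had no listed peak in their windows. The GNA12 window of 0.23 Mb lay in a peak-free stretch of 866 kb. The summit before it was 360 kb from the edge with a height of 42, and the summit after it was 276 kb from the edge with a height of 21. GNA13 stands between LRRC37A3 and RGS9, a regulator of G protein signalling, in the RefSeq gene order, and its window of 0.16 Mb lay in a peak-free stretch of 956 kb. There the summit before was 167 kb away with a height of 24, and the summit after was 629 kb away with a height of 16.

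Empty stretches as long as the GNA12 and GNA13 windows were common in the list. How often peak-free stretches reach 866 or 956 kb was not determined. No summit was found in 54.5% of all stretches of 0.23 Mb and in 58.8% of those on chromosome 7. For stretches of 0.16 Mb the share was 64.4% over the list and 59.2% on chromosome 17. At the density of the list, 0.79 peaks would fall in the GNA12 window and 0.55 in the GNA13 window. The lack of a peak there is a lack of a call at the authors' threshold, and weaker binding below it was not detectable in a peak list. Likewise, at least 1 summit was found in 38.7% of all stretches of 0.18 Mb, the length of the GNA11 and GNA15 window, and in 42.3% of those on chromosome 19. Its count of peaks was near this background, while the height of its single peak was the highest in the list.

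**Figure D4:**
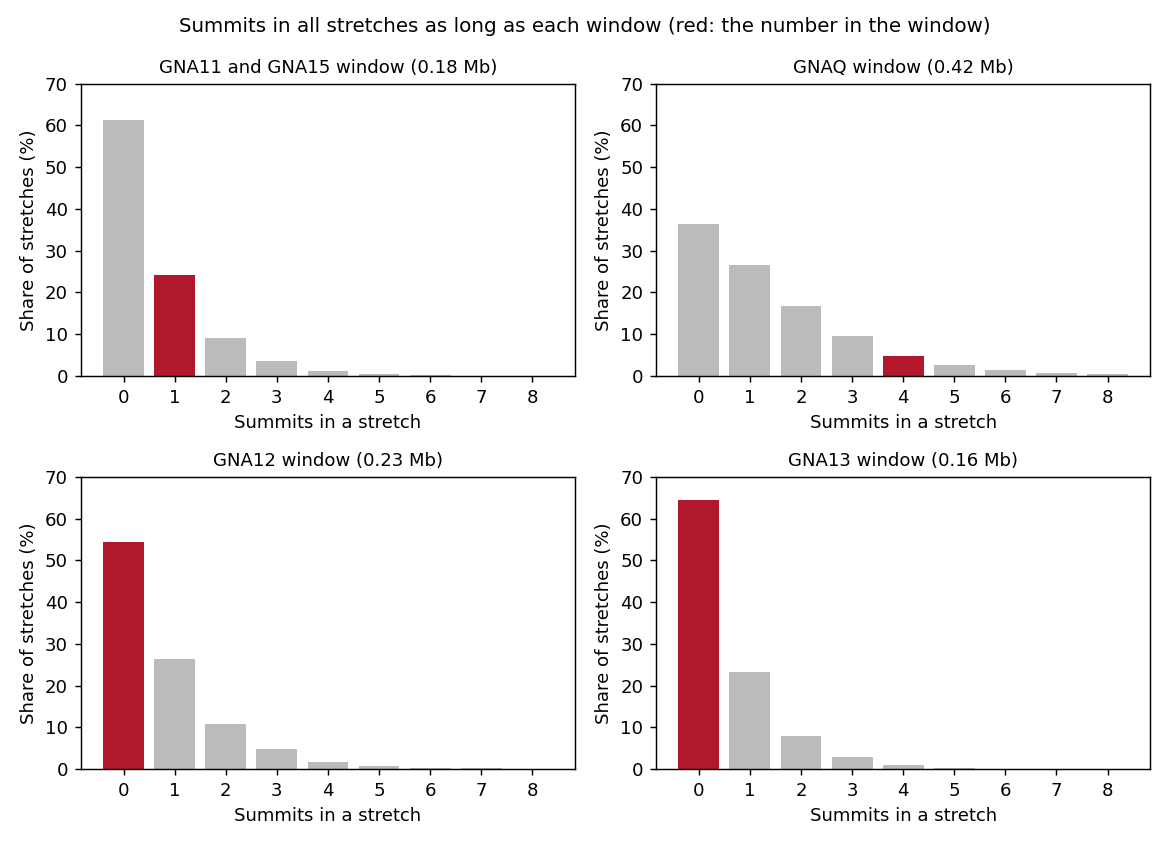
Share of all consecutive stretches in percent (vertical axis) that hold each number of summits (horizontal axis), for stretches as long as each of the 4 windows, with the number found in the window in red; up to 8 summits are drawn. Stretches with 0 summits make up 54.5% at the length of the GNA12 window and 64.4% at that of the GNA13 window, and 10.6% hold 4 or more at that of the GNAQ window.

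Taking the classes side by side, the 2 windows of the Gq class held all 5 peaks in 0.6 Mb, and the 2 windows of the G12 class held 0 in 0.39 Mb. The GNAQ window alone held 4 of the 5. At the density of the list, 0.62 peaks would fall in the GNA11 and GNA15 window and 1.45 in the GNAQ window. For the GNA12 and GNA13 windows the values are 0.79 and 0.55. The windows together covered 0.99 Mb with 5.05 peaks per Mb, against 3.45 per Mb over the list, where 3.42 peaks would fall in that length. The difference between the classes was not tested, because the windows were chosen with the peaks known.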

How the data were processed

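Per the submitters' processing notes, reads were processed with BWA 0.6.1 and MACS on hg19. How MACS was run (version, threshold, duplicate reads, input as control) is not given in the sources used here. The deposited file holds 2 tracks per the file headers, one of summits and one of intervals, which were joined by their order. The summit score deposited by the authors, called the height, has no stated unit and served to describe and rank peaks. It is not corrected for copy number.

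The members and windows were chosen with earlier results of these data known. Peaks were counted by summit, and intervals are given 1-based. The length of a chromosome ran between its outermost summits, less the longest peak-free stretch, and consecutive stretches began at the first summit and left out those wholly in that peak-free stretch. The local median used 5 summits on each side. The RefSeq tables of GRCh38.p14 gave names, gene order and promoter sequences only. Other genes of the pathway could not be placed on hg19 and are not analysed here. Only the 5 member genes and direct neighbours of some of them are named. The neighbours of GNA12 are not reported here. The counting steps were tested on simulated data. Python 3.11.15, numpy 2.4.6, pandas 2.3.3 and scipy 1.17.1 were used. Read depth is unknown.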

Additional observations from a re-analysis of the deposited data

How the results depend on the processing

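No paired analysis was possible because each group has 1 library. Leaving out a replicate was not possible either. Of 41 alternative values, 35 stayed within 1.5 times the reported value or, for median heights, equal to it. Some of the 35 could not have moved, so this share does not measure how stable the results are. The empty GNA12 and GNA13 windows stay at 0 peaks when edges move in, lower peaks are dropped or close intervals are merged. Merging intervals under 200 bp apart cannot change a window with 1 peak or the GNAQ window, whose closest intervals are 4.55 kb apart. The density of the GNA11 and GNA15 window, which rests on 1 peak, was 1.61 times that of the list, 3.43 times for peaks higher than the list median and 1.03 times with the edges moved out by 50 kb. Restriction to peaks higher than the list median left 2 of the 4 peaks of the GNAQ window, by construction, and raising the height limit to 60 left 1 of 2 tall peaks. The median height of the GNAQ window less that of the list was 0.5, and it became -2 with the edges moved out by 50 kb and -3 without the tallest peak of the window, since only 4 peaks carry it. The GNA12 and GNA13 windows held 0 peaks with edges moved out by 50 kb. Without its tallest peak the GNA11 and GNA15 window has no height. Chosen after seeing the data, medians over 10 summits on each side and over all summits within 2 Mb put the GNA11 window peak at 4.08 and 4.55 times its neighbours, against 4.76. Unknown depth and the single library limit every value.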

Other observations

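Beyond the windows, the side of GNA11 away from GNA15 held 7 peaks between 412 and 577 kb before the edge of the window. Their heights were 53, 46, 20, 20, 73, 19 and 31 in order along chromosome 19, and the one of height 73 was the 14th tallest of the whole list. On the GNA15 side, only 1 peak, of height 17, lay within 1 Mb of the window. Around the empty GNA13 window the flanks were uneven too, with 8 peaks of heights 15 to 40 before it and 3 peaks of heights 15 to 22 after it. Around the empty GNA12 window, 1 peak of height 42 lay before and 6 peaks of heights 21 to 39 lay after. The genes at these flanking peaks were not determined.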
